A study of Homo sapiens with 4 samples.

Results

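The comparison described here sets Raji/R, a rituximab-resistant subline, against parental Raji, a human Burkitt lymphoma cell line. Rituximab is a therapeutic antibody against CD20, the surface protein of B cells encoded by MS4A1. Probe sets were included when the platform annotation gave them exactly 1 gene symbol and when their signal was at least 77.5 on 1 or both of the Raji arrays. This signal, called the floor below, was the pooled median of all values on the 4 arrays of the series. The rule kept 26874 of the 41091 probe sets with a single symbol, out of 54613 on the array, and these belonged to 14926 genes. Each gene was read by its brightest probe set over the 4 arrays, and 14587 of 19775 genes had that probe set among the members. Just inside the rule stood PPP2R3A, with a signal of 77.4874 in Raji, and LACRT, with 77.4878 in Raji/R. Just outside stood ZNF594 and PPIC, with 77.4684 and 77.4806 in Raji/R.

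Total RNA of each culture was hybridised to an oligonucleotide array, where 1 gene can have several probe sets. The labels describe the parental cells as not treated with rituximab and the Raji/R cells as treated with it, so that resistance and exposure cannot be told apart. No antibody dose, exposure time or number of clones was used here, because the labels name none. There was 1 array for each line, and the same holds for the mantle cell lymphoma line Jeko-1 and its resistant subline Jeko-1/R, which serve below only as a second pair. Without replicates the spread between cultures is unknown, so no difference was tested and no p-value is given. Values are MAS5 signals, where MAS5 is a method that summarises the probes of a probe set and scales each array by 1 factor. Differences are given as log2 ratios of Raji/R over Raji, with lower values raised to the floor, and 2-fold was the size that counted as higher or lower.

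CD20 is a membrane-spanning protein that most mature B cells carry. Rituximab bound to it can engage complement, recruit immune effector cells or trigger signals inside the cell. Raji cells derive from a Burkitt lymphoma, a germinal-centre type tumour with high MYC that often carries Epstein-Barr virus. The lists of genes below cover the antibody's targets, B-cell identity, death and stress programmes, metabolism and the cell cycle. They were chosen with earlier results of these data known.

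Among all members more genes were higher than lower in Raji/R with the values as deposited, and both kinds were rare among bright genes. Of 14587 genes, 1000 were higher by 2-fold or more (6.86%) and 382 were lower by that much (2.62%). These shares are the ones to set beside the count in each gene list below. The higher genes made up 72.4% of those past 2-fold. That share was 53.4% after quantile normalization and 49.8% after a lowess adjustment of the ratio on signal. A gene was called bright when both Raji arrays reached a signal of 367, the 75th percentile of all values. Of 7029 bright genes, 48 were higher by 2-fold or more (0.683%) and 78 lower (1.11%). These counts were 43 and 47 after quantile normalization, 60 and 57 after the lowess adjustment and 57 and 42 with the probe sets of a gene averaged, so no direction is given for the balance among bright genes. Both counts exceeded those of the Jeko-1 pair, in which 9 of 7433 bright genes were higher and 11 lower. The SD of the log2 ratio over bright genes was 0.41 in the Raji pair and 0.21 in the Jeko-1 pair.

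**Figure D1:**
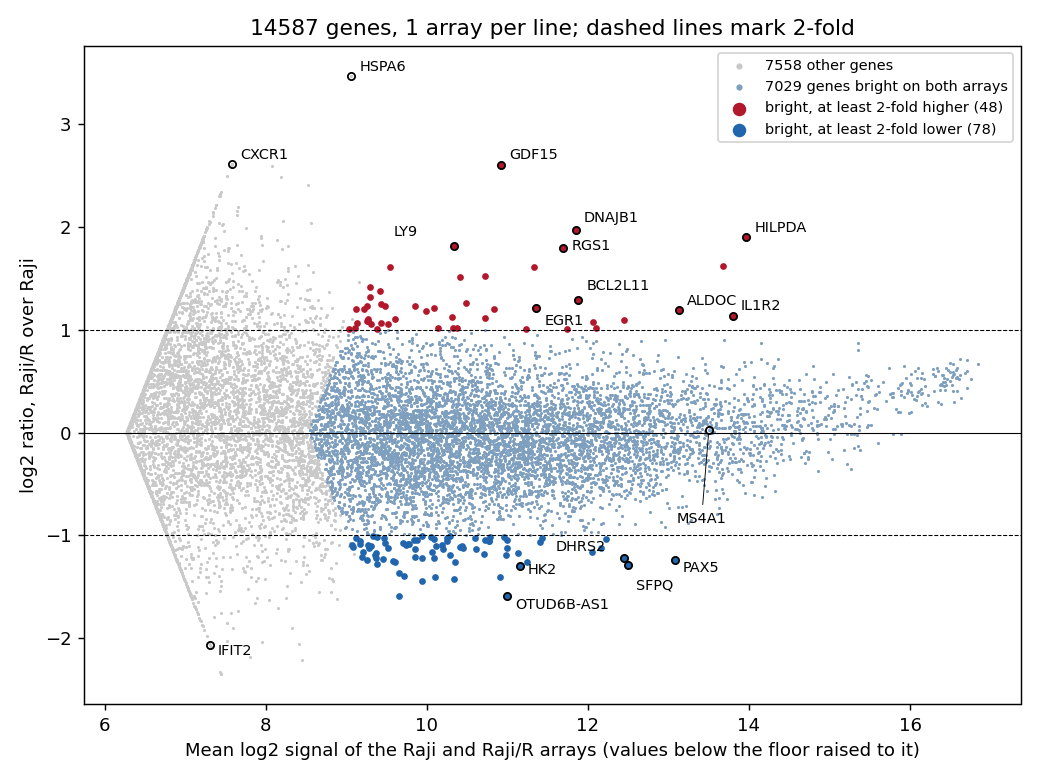
Log2 ratio of Raji/R over Raji (vertical axis) against the mean log2 signal of both arrays (horizontal axis) for 14587 genes, 1 point per gene, with genes bright on both arrays in blue-grey and those of them past 2-fold in red or blue. HSPA6 has the highest ratio (3.47), GDF15 the highest among bright genes (2.61), MS4A1 lies near 0, and the brightest genes at the right edge lie above 0.

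Low signals were shifted upward on the Raji/R array. At the 5th, 25th and 50th percentile of all probe sets, the Raji/R array exceeded the Raji array by 0.50, 0.44 and 0.41 on the log2 scale. At the 75th percentile the gap was 0.08, at the 90th it was -0.06, and at the 99th it was 0.15. At these percentiles the Jeko-1 pair differed by -0.06 to 0.05. On the Raji/R array 55.6% of probe sets reached the floor, against 48.3% on the Raji array. When genes were ordered by their signal on the Jeko-1 arrays, which do not enter the ratio, and split into 10 bins, the median log2 ratio was 0.25 in the dimmest bin, 0.35 in the third and -0.11 in the brightest. Of the 1000 higher genes, 547 were below the floor in Raji, and of the 382 lower genes, 134 were below it in Raji/R. A call that held as deposited, after quantile normalization and after the lowess adjustment was made for 554 of the higher and 347 of the lower genes. Among bright genes it was made for 40 of 48 and 43 of 78. Genes that were bright on both arrays are therefore described first.

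**Figure D2:**
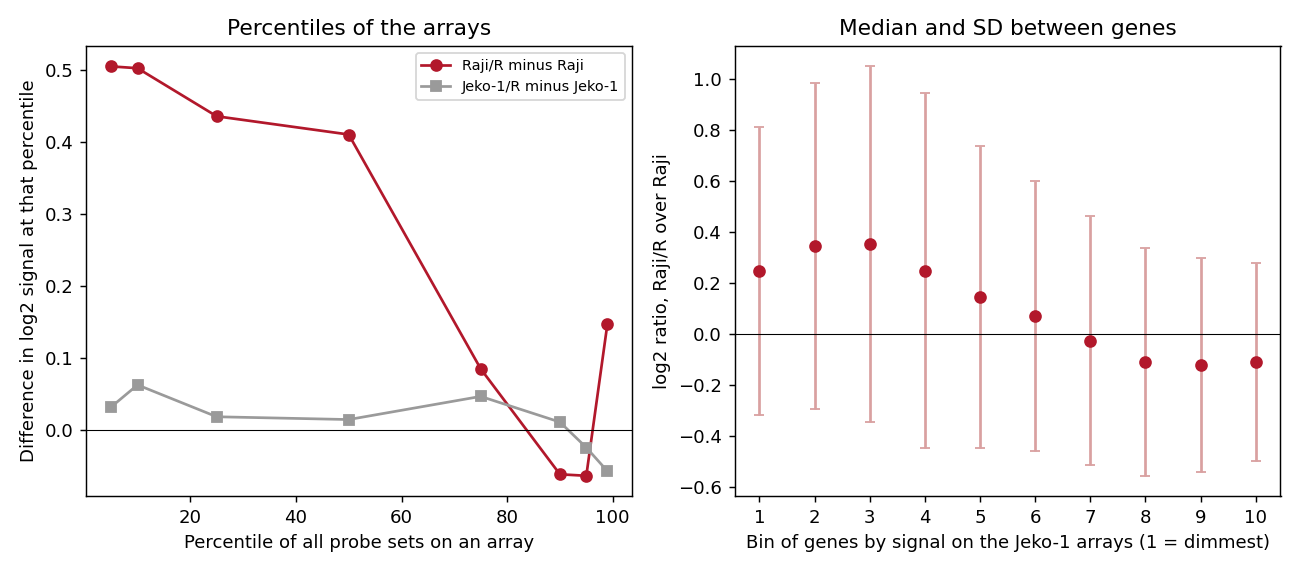
Left, difference in log2 signal between resistant and parental arrays (vertical axis) at percentiles of all probe sets (horizontal axis), with circles for the Raji pair and squares for the Jeko-1 pair. Right, median log2 ratio of Raji/R over Raji with the SD between genes as bars, in 10 bins of genes ordered by signal on the Jeko-1 arrays. The Raji pair lies 0.50 apart at the 5th percentile and 0.08 apart at the 75th, and the median ratio passes from 0.35 in the third bin to -0.11 in the brightest.

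Different probe sets of a gene read the same RNA sample and show how closely repeated readings on the array lie together. Their log2 ratios varied with an SD of 0.32 over 2426 bright genes in the Raji pair and of 0.16 over 2907 bright genes in the Jeko-1 pair. This spread is not an error between cultures. Bright genes that were higher had 55 further member probe sets, of which 42 were above 0, 17 were also at least 2-fold higher and 1 was at least 2-fold lower. Bright genes that were lower had 113, of which 72 were below 0, 7 were also at least 2-fold lower and 10 were at least 2-fold higher. The difference between these shares was not tested. Over all genes, 58.1% of 12287 further probe sets lay above 0. Of 6850 genes with 2 or more member probe sets, 45 had all of them at least 2-fold higher, 11 had all of them at least 2-fold lower, and 79 had probe sets past 2-fold in both directions.

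**Figure D3:**
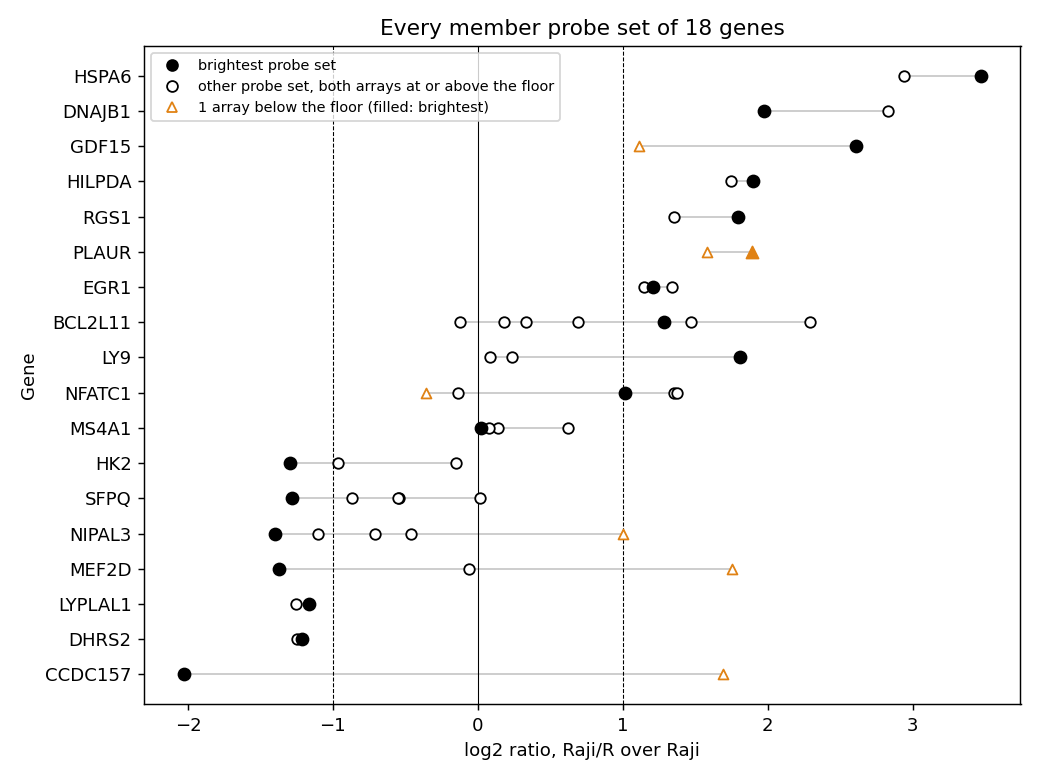
Log2 ratio of Raji/R over Raji (horizontal axis) of every member probe set of 18 genes (vertical axis), with the brightest probe set filled and triangles where 1 array was below the floor. All probe sets of HSPA6, DNAJB1, GDF15, HILPDA, RGS1, PLAUR and EGR1 lie above 1, those of LYPLAL1 and DHRS2 below -1, while those of BCL2L11, SFPQ and MEF2D spread widely and those of MS4A1 stay between 0.02 and 0.62.

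The antibody's target was abundant in both cultures. The brightest MS4A1 probe set gave a signal of 11514 in Raji and 11698 in Raji/R. Its ratio of 0.02 became -0.02 after the lowess adjustment, so no direction is given. In a list of 16 surface proteins that are targets of B-cell antibodies, 15 were measured, 0 were past 2-fold and 10 were above 0, with a median of 0.23 beside 0.08 over all genes. The highest member was TNFRSF13C, the BAFF receptor, at 252 in Raji and 448 in Raji/R (log2 ratio 0.83). CD37, a tetraspanin of B cells, followed at 468 and 812 (0.79, other probe set 0.49). CD22, an inhibitory receptor, stood at 10954 and 12867 (0.23). The lowest ratio, -0.29, belonged to the receptor ROR1, with dim signals of 99.1 and 81.1.

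Genes that mark a Burkitt lymphoma were bright in both arrays. MYC, the transcription factor that defines this tumour, gave 6681 in Raji and 6028 in Raji/R (-0.15). BCL6, the repressor of the germinal-centre programme, gave 14398 and 14566 (0.02, and -0.06 after the lowess adjustment). Of 19 measured genes of the germinal-centre list 0 were at least 2-fold higher, 1 was at least 2-fold lower (EZH2), and the median was -0.09, or 0.02 when x_at and s_at probe sets, which can match other transcripts, were left out. MME, which encodes the germinal-centre antigen CD10, was dim, at 223 and 113 (-0.98, other probe set -1.31). The mantle cell markers CCND1 and SOX11 were below the floor on both arrays, with 6.44 and 6.15 in Raji and 35.1 and 14.6 in Raji/R. The other mantle cell markers, CD5 and FMOD, were dim and lay above 0. CD5 had 47.4, below the floor, and 121 (0.64), and FMOD had 93.6 and 140 (0.58).

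Heat shock genes held the largest increase. HSPA6, a strictly inducible HSP70 chaperone, had a signal of 160 in Raji and 1777 in Raji/R, a log2 ratio of 3.47, and its other probe set gave 2.94. DNAJB1, the co-chaperone that delivers clients to HSP70, had 1865 and 7311 (1.97, other probe set 2.83). Most other chaperones differed little. Of 19 measured members of the list, 2 were at least 2-fold higher, 0 were lower and 13 were above 0, with a median of 0.15. HSP90AA1, the inducible cytosolic HSP90, had 4369 and 6592 (0.59), and its other probe sets gave 0.61 to 0.77. HSPH1 stood at 0.18, HSPD1 at -0.02 and DNAJA1, another HSP70 co-chaperone, at -0.31. HSF1, the transcription factor of the heat shock response, had 375 and 724 (0.95, other probe set 1.29).

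Promoters of the HSPA6 and DNAJB1 genes are shown because these were the list members past 2-fold. The windows run from 250 bases before to 50 bases after a transcription start of RefSeq, assembly GRCh38.p14, read 5′ to 3′ on the strand of the gene. The HSPA6 window is chr1:161524290-161524589 on the plus strand, and the DNAJB1 window is chr19:14518348-14518647 on the minus strand. Capitals mark the units GAANNTTC or TTCNNGAA of the heat shock element, which read the same on both strands.
HSPA6: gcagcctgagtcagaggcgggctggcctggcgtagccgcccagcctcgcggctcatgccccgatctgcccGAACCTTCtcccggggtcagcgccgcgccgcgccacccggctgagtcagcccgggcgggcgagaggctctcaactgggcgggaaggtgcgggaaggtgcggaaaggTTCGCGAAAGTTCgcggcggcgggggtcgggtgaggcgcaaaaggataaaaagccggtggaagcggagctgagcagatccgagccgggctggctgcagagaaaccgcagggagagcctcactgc
DNAJB1: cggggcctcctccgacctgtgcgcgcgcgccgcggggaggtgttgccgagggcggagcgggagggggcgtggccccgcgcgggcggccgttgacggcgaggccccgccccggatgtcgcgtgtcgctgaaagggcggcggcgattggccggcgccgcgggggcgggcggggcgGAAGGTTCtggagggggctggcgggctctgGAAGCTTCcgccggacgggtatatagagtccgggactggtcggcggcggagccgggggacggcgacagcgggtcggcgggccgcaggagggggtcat
The HSPA6 window held 3 units, which begin 180, 74 and 69 bases before the start, and the last 2 overlap. The DNAJB1 window held 2 units, which begin 77 and 47 bases before the start. The table holds 3 windows of DNAJB1, with 0, 2 and 1 units, and the one with the most is shown. A unit was found in 13.5% of 35116 promoter windows in the table, and 16.2% of 27305 genes had a window with one. Of 16 measured chaperone genes with a window, 10 had one, 8 of them within 2-fold, and a match describes letters only.

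Stress genes outside the chaperones did not move as a group. GDF15, a secreted cytokine induced by several stresses, had 787 in Raji and 4794 in Raji/R (2.61), and its dimmer probe set was at least 2.16-fold higher. In the list of the integrated stress and unfolded protein response, which includes GDF15, 1 of 41 measured genes was higher by 2-fold or more and 1 lower. The lower gene was EDEM1, which helps dispose of misfolded glycoproteins, with 2206 and 1085 (-1.02). The median was 0.06 and turned to -0.01 after quantile normalization. DDIT3, the death-linked factor CHOP, stood at 0.30, the factor ATF4 at -0.10, and HSPA5, the chaperone BiP of the endoplasmic reticulum, at 12200 and 18698 (0.62). Among p53 targets, GDF15 and PHLDA3, an inhibitor of AKT, were the 2 of 24 genes past 2-fold, while the list median was -0.12. Their share of 8.33% was near the 6.86% of all genes. PHLDA3 was below the floor in Raji, with 72.6 and 237 (other probe set 0.48).

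Several genes of lymphocyte signalling were higher. RGS1, a brake on chemokine receptor signals in B cells, had 1782 in Raji and 6179 in Raji/R (1.79, other probe set 1.36). EGR1, a transcription factor made early after receptor signals, had 1727 and 3994 (1.21), and its other probe sets gave 1.15 and 1.34. FOS, an early AP-1 subunit, was dimmer, at 96.8 and 247 (1.35). The immediate-early list had 4 of 27 measured genes at least 2-fold higher, 0 lower and 17 above 0, with a median of 0.19, beside 6.86% of all genes higher and 2.62% lower. The members past 2-fold were RGS1, FOS, EGR1 and IER3, of which IER3 was below the floor in Raji (4.87 and 174). JUN stood at 0.46, JUNB at -0.16, MYC at -0.15 and KLF10, a TGF-beta induced factor, at 17054 and 10885 (-0.65). Of 21 measured regulators and alpha subunits of G proteins, 5 were at least 2-fold higher (RGS1, RGS4, RGS12, GNAZ and GNA15) and 0 lower, beside the same 6.86% and 2.62% of all genes. Only RGS1 among these 5 was bright on both arrays. RGS4 was below the floor in Raji (57.8 and 180), and other probe sets of RGS12 gave -0.10 to 0.62. Among all genes at or above the floor on both arrays but not bright on both, 9.64% were higher. Of genes below the floor in Raji, which were members only through Raji/R, 22.8% were higher. What part the shift of low signals has in the dim members of both lists was not tested.

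Receptors and ligands of B cells added further single genes. LY9, a SLAM family receptor, had 693 and 2431 (1.81), but its other probe sets, of similar brightness in Raji, gave 0.08 and 0.24. IL1R2, the decoy receptor for interleukin-1, had 9625 and 21173 (1.14, other probe set 0.92). CCL22, a chemokine made by activated B cells, had 1152 and 2501 (1.12), and was the only gene past 2-fold among 29 measured genes of the NF-kB list, whose median was 0.14 and became -0.14 without x_at and s_at probe sets. NFATC1, a calcium-regulated transcription factor, had 906 and 1832 (1.02), while its other probe sets ranged from -0.35 to 1.37. The rest of B-cell receptor signalling lay close to 0, with 1 of 38 genes higher, 0 lower and a median of -0.02. PLAUR, the urokinase receptor, was at least 3.71-fold higher on 1 probe set and at least 2.99-fold higher on the other. Genes that respond to Epstein-Barr virus proteins had a median of 0.23 over 17 measured members, of which 1, CCL22, was past 2-fold.

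Among death regulators, BCL2L11 stood apart from its family, and its probe sets did not agree. BCL2L11 encodes BIM, a protein that triggers mitochondrial cell death. Its brightest probe set had 2416 in Raji and 5886 in Raji/R (1.28). The other 6 probe sets gave ratios between -0.13 and 2.29, and the one at -0.13 was brightest on the Raji array, with 5591 and 5127. The remaining family members were within 2-fold. BCL2 stood at -0.38, MCL1 at -0.41 and BCL2A1 at -0.39, all 3 being survival proteins, and BCL2L1, also a survival protein, at 0.20. The pro-death proteins BAX and BAD stood at -0.16 and 0.55. Over 15 measured members the median was 0.12, with 8 above 0, and became -0.15 with probe sets averaged. Of 20 measured death receptors, caspases and inhibitors of apoptosis, 0 were past 2-fold. Of 7 measured complement regulators 0 were past 2-fold, and CD59, which blocks the membrane attack complex, had 791 and 1234 (0.64), CD55 2988 and 2563 (-0.22) and CD46 1461 and 1253 (-0.22).

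Glycolysis genes were mostly above 0. Of 26 measured members 21 were above 0, 3 were higher by 2-fold or more and 1 lower, and the median of 0.46 became 0.27 after quantile normalization and 0.35 after the lowess adjustment. ALDOC, an aldolase, had 5927 in Raji and 13567 in Raji/R (1.19). PFKL, the liver-type phosphofructokinase, had 793 and 1603 (1.02), although its other probe set gave 0.26. The hexokinases, which commit glucose to the pathway, went opposite ways. HK1 had 2418 and 4850 (1.004), and HK2, its inducible relative, had 3573 and 1457 (-1.29, other probe sets -0.96 and -0.15). The glucose transporters SLC2A1 and SLC2A3 stood at 0.77 and 0.67, and PFKFB4, which makes an activator of phosphofructokinase, at 4339 and 7645 (0.82, other probe set 1.47). Very bright enzymes had ratios that depended on scaling. GAPDH stood at 0.63 as deposited and 0.20 after quantile normalization, and LDHA, the lactate-forming enzyme, at 0.35 and -0.09. Of 34 further probe sets of the list, 27 were above 0.

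Hypoxia-responsive genes outside glycolysis showed large single increases and no common shift. HILPDA, a lipid droplet protein, had 8289 in Raji and 30917 in Raji/R (1.90), and its other probe set, with 7734 and 25942, gave 1.75. ANKRD37, a small ankyrin-repeat gene that hypoxia induces, had 1474 and 4493 (1.61). Also past 2-fold, and dimmer, were BHLHE40, a circadian and hypoxia-induced repressor, at 181 and 406 (1.16, other probe set 0.57), and NDRG1, at 90.9 and 196 (1.11). NDRG1 came within 2-fold after quantile normalization (0.99) and after the lowess adjustment (0.77). The list had 4 of 24 measured genes higher (16.7%) and 0 lower, beside 6.86% and 2.62% of all genes. Among genes at or above the floor on both arrays but not bright on both, 9.64% were higher. The list median of 0.10 became -0.01 after quantile normalization, and it was -0.15 over the bright members. VEGFA, the angiogenic growth factor, had 5524 and 3992 (-0.47), HIF1A, the oxygen-regulated subunit, 7022 and 5651 (-0.31) and BNIP3L 2452 and 2505 (0.03). The promoter window of ANKRD37, chr4:185396591-185396890 on the plus strand, is shown because this gene was the brightest of the higher list members with a window. Capitals mark ACGTG, the core of the hypoxia response element, on either strand.
ANKRD37: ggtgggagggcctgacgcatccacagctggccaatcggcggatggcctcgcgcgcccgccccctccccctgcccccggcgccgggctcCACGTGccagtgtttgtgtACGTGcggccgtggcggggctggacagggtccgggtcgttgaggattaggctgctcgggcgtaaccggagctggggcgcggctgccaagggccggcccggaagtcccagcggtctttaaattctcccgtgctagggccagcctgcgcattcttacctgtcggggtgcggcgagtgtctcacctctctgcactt
The window held 3 matches, 2 of them on opposite strands of 1 overlapping site. The core was found in 21.4% of all promoter windows and in windows of 24.9% of genes, and 13 of 19 measured list genes with a window had it.

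Among bright genes that were lower, PAX5 had the highest signal in Raji. PAX5, the transcription factor that maintains B-cell identity, had 13252 in Raji and 5628 in Raji/R (-1.24), read by 1 probe set. SFPQ, an RNA-binding protein of the nuclear paraspeckle, had 9026 and 3705 (-1.28), and its other 4 probe sets gave -0.87, -0.55, -0.54 and 0.02. OTUD6B-AS1, an antisense RNA, had 3561 and 1181 (-1.59) while its other probe set gave 0.05. APOLD1, an apolipoprotein L domain gene, had 1402 and 466 (-1.59). Both probe sets were past 2-fold for DHRS2, a short-chain dehydrogenase, with 8512 and 3664 (-1.22, other probe set -1.25). LYPLAL1, a lysophospholipase-like gene, had 6365 and 2840 (-1.16, other probe set -1.25). Other bright genes with ratios below -1.3 were RBFOX2, a splicing regulator, RWDD3, GTF2H3, a subunit of transcription factor TFIIH, KRABD5, NIPAL3 and MEF2D. Further probe sets gave -0.32 to -0.23 for RBFOX2, -0.67 for GTF2H3 and -1.11 to 0.999 for NIPAL3. Those of MEF2D gave -0.06 and 1.75, so this gene had probe sets past 2-fold both ways. RWDD3 and KRABD5 were each read by 1 probe set.

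The B-cell identity list spread from -1.68 to 0.46, with 13 of 27 measured genes above 0, 0 higher by 2-fold or more and 3 lower. Its median was -0.14 over all 27 and 0.03 over the 25 bright ones, so no direction is given for the list. Besides PAX5 the lower genes were dim. BACH2, a repressor of plasma cell differentiation, was at least 3.21-fold lower, from 249 in Raji to 26.4 in Raji/R. ZNF521, an inhibitor of the early B-cell factor EBF1, had 416 and 170 (-1.29, other probe set -0.80). Several transcription factors of the list lay below 0. EBF1 stood at -0.30, IKZF1 at -0.38, TCF4 at -0.55, ETS1 at -0.60 and FOXO1 at -0.58. Some surface proteins lay above 0, as CD79B, a signalling chain of the B-cell receptor, did at 0.46, CD72 at 0.39 and CR2, a complement receptor, at 0.16. All of these were within 2-fold, and the split between factors and surface proteins was seen after the values. PRDM1 and IRF4, which promote plasma cells, were dim, with 84.1 and 134 (0.67) and 175 and 332 (0.92).

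DNA replication genes were mostly below 0. Of 46 measured members 9 were above 0, 0 were higher by 2-fold or more and 2 lower, with a median of -0.26 that was -0.23 after quantile normalization and -0.27 after the lowess adjustment. CDC45, part of the replicative helicase, had 1617 in Raji and 755 in Raji/R (-1.10). MCM10, which activates that helicase, had 1010 and 496 (-1.03), with other probe sets at -0.87 and 0.20. After quantile normalization CDC45 stood at -0.98 and MCM10 at -0.95, both within 2-fold. The sliding clamp PCNA had 24946 and 16781 (-0.57), and CDC6, a loader of the helicase, 2035 and 1069 (-0.93, other probe set -0.42). Exceptions above 0 were MCM5 (0.56), POLE (0.60), POLE2 (0.61) and TK1 (0.48). Of 35 further probe sets of the list 11 were above 0, with a median of -0.28. In the mitosis list 12 of 41 measured genes were above 0, with a median of -0.14. BUB1B, a spindle checkpoint kinase, had 2830 and 1400 (-1.02, and -0.88 after quantile normalization). KIF11, a spindle motor, had 415 and 132 (-1.65), while MKI67 had 369 and 744 (1.01) with other probe sets between -0.12 and 0.22.

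Enzymes that modify histones and DNA also had a median below 0 by their brightest probe sets, but their other probe sets did not. The median was -0.25 over 60 measured genes, of which 20 were above 0, 1 was higher and 3 were lower, and it was -0.02 with probe sets averaged. The 102 further probe sets of these genes had a median of 0.14. EZH2, the methyltransferase of Polycomb complex 2 and a driver of germinal-centre growth, had 2519 and 1212 (-1.05). HDAC9, a histone deacetylase, had 731 and 303 (-1.27), but its other probe sets reached 0.78. HDAC5, a deacetylase of the same class, was higher, with 126 and 476 (1.92, other probe set -0.45).

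**Figure D4:**
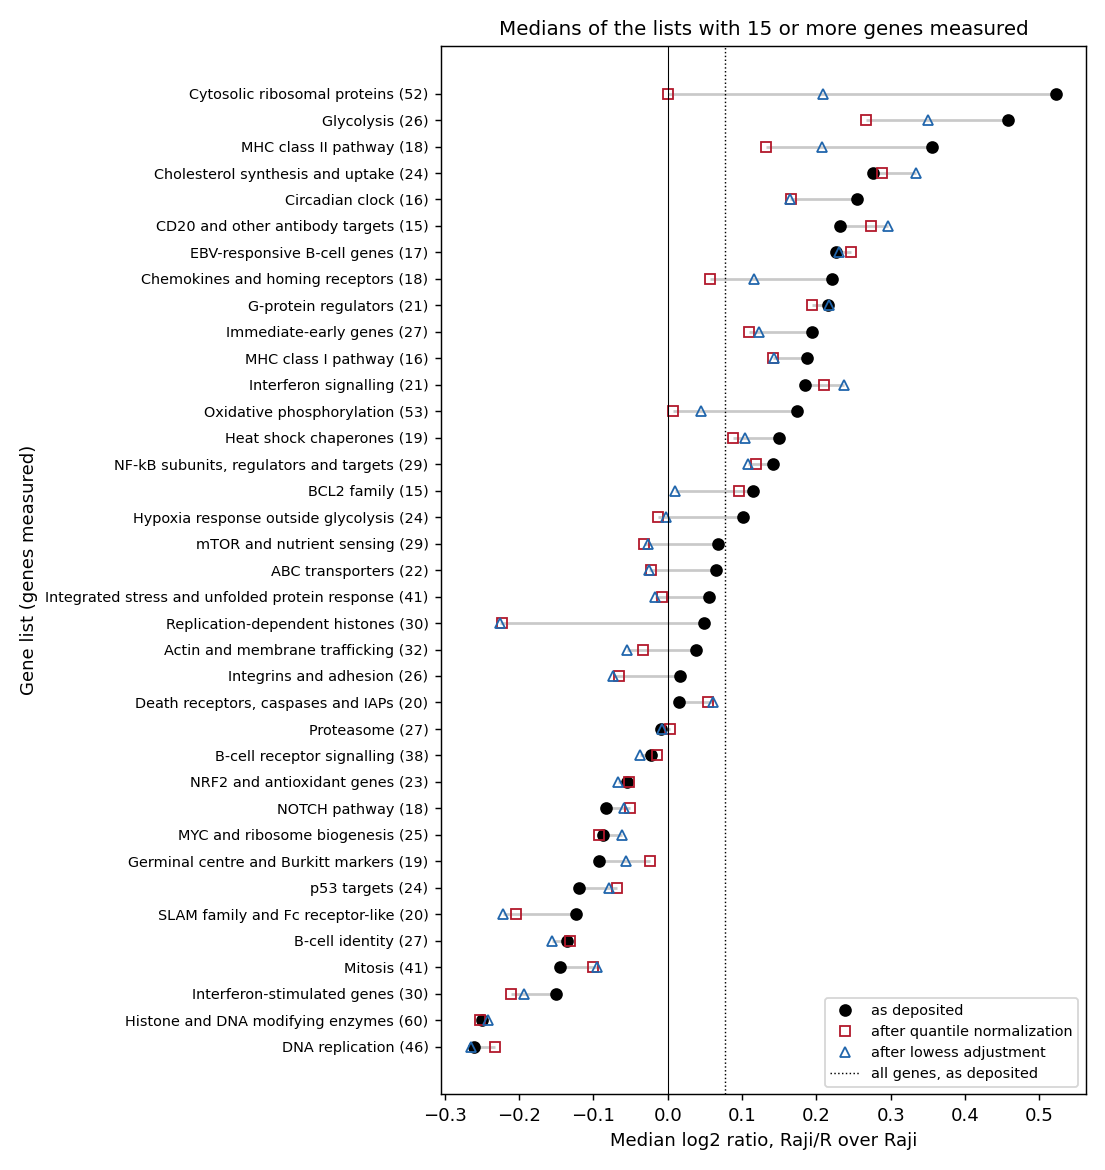
Median log2 ratio of Raji/R over Raji (horizontal axis) for each gene list with 15 or more genes measured (vertical axis, number measured in brackets), as deposited (circles), after quantile normalization (squares) and after lowess adjustment (triangles), with the median of all genes as a dotted line. DNA replication keeps a median between -0.27 and -0.23 and cholesterol synthesis one between 0.28 and 0.33 over the same genes (0.04 without x_at and s_at probe sets, which is not plotted), while ribosomal proteins move from 0.52 to 0.

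Interferon-stimulated genes were more often below than above 0 by their brightest probe sets, but their other probe sets were not. Of 30 measured members 9 were above 0, 1 was at least 2-fold higher and 4 were at least 2-fold lower, and the median was -0.15, or -0.05 with probe sets averaged. Of 21 further probe sets of the list 14 were above 0, with a median of 0.13. TRIM22, an antiviral ubiquitin ligase and the only bright gene of the 4, had 1367 in Raji and 622 in Raji/R (-1.14). IFIT2, which binds viral RNA, had 324 and 77.6 (-2.06), a value just above the floor in Raji/R. IFIT3, its partner, had 290 and 135 (-1.10, other probe set 0.13), and PARP9, an ADP-ribosyltransferase family member, 572 and 209 (-1.45, other probe set -0.55). PARP12, of the same family, was higher, with 82.2 and 266 (1.70). ISG15, BST2 and OAS2, 3 further targets, stood at 0.10, 0.57 and 0.48. The windows of PARP9 (chr3:122564251-122564550, minus strand) and PARP12 (chr7:140062902-140063201, minus strand) are shown because these family members differed in direction. Capitals mark GAAANNGAA, a reading of the interferon-stimulated response element, or its reverse complement.
PARP9: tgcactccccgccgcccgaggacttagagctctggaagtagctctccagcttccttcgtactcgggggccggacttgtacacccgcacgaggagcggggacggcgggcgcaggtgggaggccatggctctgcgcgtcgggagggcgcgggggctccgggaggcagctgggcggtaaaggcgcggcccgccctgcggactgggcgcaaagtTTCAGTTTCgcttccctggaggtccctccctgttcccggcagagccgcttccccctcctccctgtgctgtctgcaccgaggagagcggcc
PARP12: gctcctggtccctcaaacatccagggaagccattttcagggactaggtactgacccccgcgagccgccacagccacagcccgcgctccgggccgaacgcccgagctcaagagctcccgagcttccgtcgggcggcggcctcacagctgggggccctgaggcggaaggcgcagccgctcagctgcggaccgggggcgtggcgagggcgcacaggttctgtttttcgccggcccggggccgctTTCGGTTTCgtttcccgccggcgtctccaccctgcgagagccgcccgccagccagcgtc
Each of these windows held 1 match, and the other PARP9 window of the table held 0. The motif was found in 8.11% of all promoter windows and in windows of 9.86% of genes, and 18 of 24 measured list genes with a window had it.

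Cholesterol synthesis genes lay mostly above 0 by their brightest probe sets, and so did their other probe sets. Of 24 measured genes 18 were above 0, as were 25 of 29 further probe sets, and the median was 0.28 as deposited, 0.29 after quantile normalization and 0.33 after the lowess adjustment of the same genes. Without x_at and s_at probe sets it was 0.04. TM7SF2, a sterol reductase and the only member past 2-fold, had 179 in Raji and 543 in Raji/R (1.60). DHCR7, which makes the last step to cholesterol, had 1889 and 3402 (0.85, other probe set 1.08). EBP, a sterol isomerase, had 3555 and 6129 (0.79, other probe sets 0.75 to 1.09), and FASN, the fatty acid synthase, 407 and 774 (0.93, other probe set 0.77). SREBF1, a regulator of the pathway, stood at -0.22.

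Antigen presentation genes of class II had a median of 0.36, of which 0.13 remained after quantile normalization. HLA-DQB1 had 8489 and 14012 (0.72), HLA-DMB, an exchange factor for peptides, 12400 and 19987 (0.69), and the invariant chain CD74 22651 and 35426 (0.65, other probe sets -0.53 to 1.71). Probe sets of CIITA and RFXAP, regulators of these genes, lay on both sides of 0, so no direction is given for them. CIITA, the class II master regulator, stood at -0.41 with another probe set at 1.65. RFXAP, a subunit of the promoter-binding complex, stood at -1.004 with another probe set at 1.22. The -1.004 became -0.91 after quantile normalization and -0.94 after the lowess adjustment. Class I genes had a median of 0.19, with B2M, the light chain, at 0.42 as deposited and -0.08 after quantile normalization. Ribosomal protein genes, which were very bright, depended on the scaling, since 50 of 52 were above 0 with a median of 0.52, which was 0 after quantile normalization and 0.21 after the lowess adjustment. No direction is given for them.

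Genes read at lower signals included large ratios that rest on dim values in 1 line. CRY2, a core repressor of the circadian clock, had 94.2 and 432 (2.20). The other 2 of 16 clock genes past 2-fold were CLOCK and BHLHE40. CLOCK had 95.4 and 262 (1.46, other probe sets 0.15 and 0.47), and the other BHLHE40 probe set gave 0.57. The share of higher clock genes was 18.8%, beside 6.86% of all genes. Among genes at or above the floor on both arrays but not bright on both it was 9.64%. LRRC43, a leucine-rich repeat gene, had 111 and 665 (2.59), yet 1 of its other probe sets gave -1.10. PGAP6, which acts on GPI-anchored proteins, had 123 and 690 (2.48), with 0.32 from its other probe set. AGRN, the proteoglycan agrin, had 94.4 and 421 (2.16), with other probe sets between 0.35 and 1.29. On the lower side stood MAP3K7CL, with 755 and 163 (-2.21), ARHGEF1, an activator of RHOA in lymphocytes, with 477 and 105 (-2.18, other probe set 0.38), and SLX4IP, with 698 and 168 (-2.06, other probe set -0.47). Probe sets of CCDC157 gave -2.03 and 1.69, the widest gap among the 79 genes with probe sets past 2-fold both ways.

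From below the floor in Raji, CXCR1, a receptor for interleukin-8, reached 474 in Raji/R and was at least 6.12-fold higher. Its neighbour in the receptor family, CXCR2, had 359 in Raji and 168 in Raji/R (-1.09). SPATA16 and OR2C1, genes known from testis and smell, were at least 6.04-fold and at least 5.65-fold higher. Falling below the floor in Raji/R were ROBO1, an axon guidance receptor, from 395 and at least 5.10-fold lower, and ERCC8, a repair gene, from 394 and at least 5.09-fold lower. Another probe set of ERCC8 gave 1.15. Such genes lay in the range of signals where the array of Raji/R was shifted, and the part of that shift in each ratio was not tested.

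Markers of other cell types were mostly dim or below the floor. Of 18 T-cell markers on the array 11 were measured, 1 was at least 2-fold higher (CD3D, 36.7 and 180) and 1 at least 2-fold lower (IL7R, 163 and 40.3). Their summed signal was 4159 in Raji and 4555 in Raji/R, most of it from LCK, with 3135 and 3425, while CD3E and CD8A stayed below the floor. Of 13 NK-cell markers 6 were measured and 2 were higher, NCR3 and NCAM1, and the sum went from 1486 to 2622. Of 22 myeloid markers 10 were measured and 2 were higher, CXCR1 and S100A8, with a sum of 846 and 1726, while CD14, LYZ and MPO stayed below the floor. Of 11 erythroid and megakaryocyte markers 8 were measured and 3 were higher, with GP1BA at 85.0 and 348. Of 21 epithelial and stromal markers 13 were measured and 4 were higher, with KRT18 at 34.7 and 381. These lists held 12 higher and 1 lower gene, and their signals lay mostly in the shifted range. In the order given, 9.09%, 33.3%, 20%, 37.5% and 30.8% of measured genes were higher, beside 6.86% of all genes (2.62% lower). Of 2398 genes below the floor in Raji, which were members only through Raji/R, 22.8% were higher. Genes at or above the floor on both arrays but not bright on both were higher in 9.64% and lower in 4.05% of cases. What part the shift of low signals has in the markers was not tested.

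Gene length went with the ratio among bright genes. Bright genes were split into 4 equal groups by the length of the gene in RefSeq. The median log2 ratio was 0.13 in genes of up to 11895 bases, 0.01 and -0.10 in the middle groups, and -0.16 in genes of 62850 bases or more. After quantile normalization these medians were 0.10, 0.03, -0.06 and -0.11. In the Jeko-1 pair they were -0.02, -0.01, -0.0048 and 0.01. The number of genes at least 2-fold lower was 12, 14, 21 and 31 in the same groups, and the number at least 2-fold higher was 16, 10, 13 and 9. Median signal in Raji also differed, from 2266 in the shortest to 1375 in the longest group, and its part in the order was not tested. Groups by GC content of the promoter, which 84.8% of bright genes had, gave medians between -0.05 and -0.02.

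**Figure D5:**
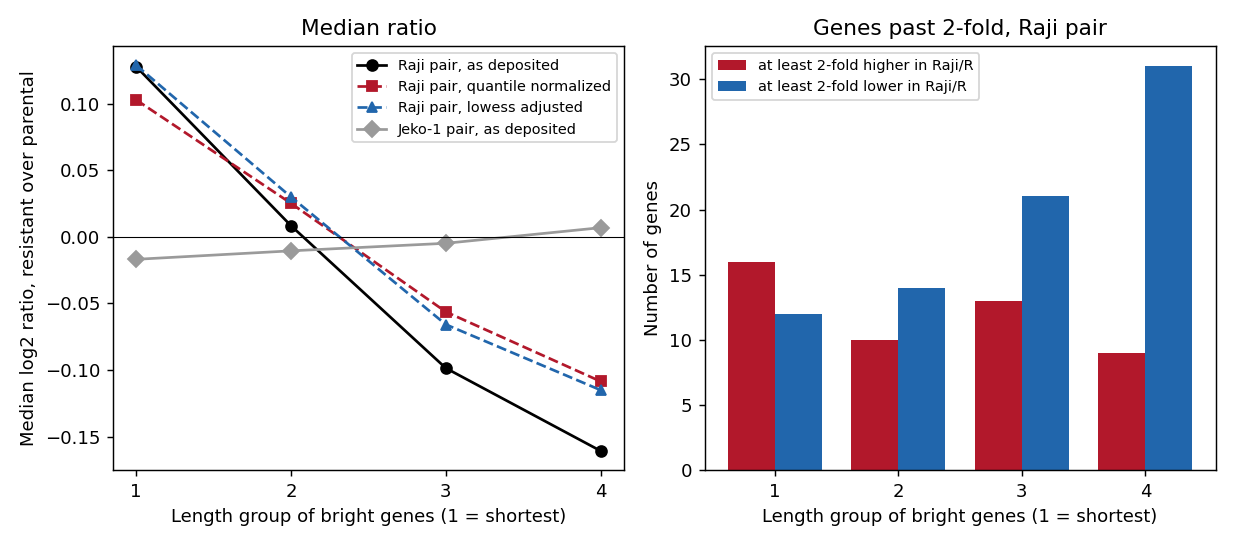
Left, median log2 ratio of the resistant over the parental line (vertical axis) in 4 groups of bright genes by gene length (horizontal axis), for the Raji pair under 3 scalings and for the Jeko-1 pair. Right, number of bright genes at least 2-fold higher (red bars) or lower (blue bars) in Raji/R per group. The Raji medians go from 0.13 to -0.16 and the number of lower genes from 12 to 31.

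Neighbouring genes were also read in windows. Over windows of 15 neighbouring genes, ordered as in the RefSeq table of GRCh38.p14 and at or above the floor on both arrays, the median log2 ratio had an SD of 0.20 across 10878 windows in the Raji pair and of 0.08 in the Jeko-1 pair. The highest window ran from DPP7 to NOXA1, with a median of 0.76, 11 genes above 0 and 6 at least 2-fold higher. The next, from INSL3 to GDF15, had a median of 0.70 and also holds JUND and JAK3. The lowest ran from CILK1 to FAM135A, with a median of -0.68, 2 genes above 0 and 3 at least 2-fold lower, in a stretch that holds DST, PRIM2 and PHF3. A window from RFC3 to ELF1, which includes RFXAP and FOXO1, had a median of -0.51 and 1 gene above 0. These windows were the extremes of many overlapping ones and are given as a description. Single genes at or above the floor on both arrays had an SD of 0.53 in the Raji pair. Whether neighbours were more alike than unrelated genes was not tested.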

How the data were processed

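The 4 arrays carry total RNA of Raji, Raji/R, Jeko-1 and Jeko-1/R, labelled from 6 µg, per the labels' protocols. Signals came from MAS5, per the submitters' processing notes, and the authors deposited them as log2 values. MAS5 scales an array by 1 factor, so differences that depend on signal level remain. The number of arrays limits the precision.

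Symbols came from the platform annotation, updated by gene ID with RefSeq (GRCh38.p14): 41091 probe sets had 1 symbol, 1801 several and 11721 none. Values below the pooled median were raised to it. The alternatives were quantile normalization, a lowess adjustment (fraction 0.3, fitted before the floor), a floor at the 75th percentile, a pseudocount, the mean of probe sets, and leaving out x_at and s_at probe sets, which can match other transcripts. The members and the 46 gene lists were chosen with earlier results of these data known.

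The rule for named genes took MS4A1, the largest ratios among bright, measured and floor-crossing genes, genes whose probe sets all passed 2-fold or passed it both ways, and up to 4 members of each list past 2-fold (otherwise up to 2), leaving out immunoglobulin variable segments. It gave 153 genes, of which the text names a part. Further list members within 2-fold, IL1R2, GNA15, IFIT3 and the genes that illustrate windows, promoters or both pairs were named after their values were seen. Steps were tested on simulated data. Computing used matplotlib 3.10.9, statsmodels 0.14.6, scipy 1.17.1, pandas 2.3.3 and numpy 2.4.6 under Python 3.11.15.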

Additional observations from a re-analysis of the deposited data

Results flagged for a closer look

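At least 2-fold apart in opposite directions in the Raji pair and the Jeko-1 pair were 10 genes. With 1 array per line, the difference between the lines was not tested. Of 11586 genes in the Jeko-1 pair, 40 were at least 2-fold higher (0.35%) and 66 lower (0.57%). In the Raji pair these shares were 6.86% and 2.62%. HSPA6 had a log2 ratio of 3.47 in Raji/R and -1.88 in Jeko-1/R, and DNAJB1, the other heat shock gene, had 1.97 and -1.25. RGS1, the brake on chemokine receptor signals, had 1.79 and -1.27. The hypoxia-induced ANKRD37 had 1.61 and -1.08, and the aldolase ALDOC had 1.19 and -1.04. Dimmer in Raji were the serine protease gene HTRA3 (1.36 and -1.09), PCOLCE, which enhances collagen processing (1.26 and -1.58), DOCK1, an activator of the GTPase RAC (1.08 and -1.02), and GNA15, a G protein subunit of blood cells (1.05 and -1.02). The adhesion receptor ADGRG1 went the other way, with -1.92 in Raji/R, where its signal was below the floor, and 1.37 in Jeko-1/R.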

How the results depend on the processing

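Counts near the floor depended on scaling. The 1000 genes at least 2-fold higher became 583 with the lowess adjustment and 53 when the floor was raised to the 75th percentile. The 382 lower genes became 717 with quantile normalization, 587 with lowess, 86 with the higher floor and 239 with the mean of probe sets. The share of higher genes was 53.4% with quantile normalization, 49.8% with lowess, 38.1% with the higher floor, 75.04% with the pseudocount and 77.2% when probe sets were averaged. Among bright genes, the 48 higher became 31 with the pseudocount and 29 when x_at and s_at probe sets were left out, while the 78 lower became 47 with quantile normalization, 50 with the pseudocount and 42 when they were averaged. The 56 genes whose probe sets all passed 2-fold the same way became 34 with lowess, 5 with the higher floor and 28 without x_at and s_at probe sets. Of 129 named genes past 2-fold, 116 stayed past it with quantile normalization, 111 with lowess, 92 with the pseudocount and 97 when probe sets were averaged, 82 of the 96 still measured did when x_at and s_at were left out, and 45 of the 80 still measured did with the higher floor. Their direction changed for 5: LCE1E (-0.25), MCM10 (0.20) and SFPQ (0.017) without x_at and s_at probe sets, MEF2D (0.11) and RFXAP (0.11) when probe sets were averaged. Of 46 list medians, 10 changed sign with quantile normalization, 9 with lowess and 8 without x_at and s_at probe sets. The causes were not tested. No paired analysis was possible because each group has 1 array. Dim probe sets limit what the data show, since 55.6% of probe sets reached the floor on the Raji/R array and 48.3% on the Raji array.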

Other observations

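Probe sets without a single gene symbol were outside the comparison above. Of 6756 such probe sets with a signal of at least 77.5 on 1 of the Raji arrays, 601 were at least 2-fold higher in Raji/R (8.90%) and 181 at least 2-fold lower (2.68%), and among 1351 bright on both arrays 10 were higher and 16 lower. Probe sets with 1 symbol gave 7.43% higher and 2.94% lower.

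Past 2-fold in the same direction in both pairs were 8 genes. Of all genes, 6.86% were higher and 2.62% lower in the Raji pair, and 0.35% and 0.57% in the Jeko-1 pair. How many shared genes these shares alone would give was not tested. NACA4P, a pseudogene of a nascent-chain factor whose probe set can match other transcripts, had log2 ratios of 1.62 in Raji/R and 1.03 in Jeko-1/R. PTGDS, a prostaglandin D synthase, had 1.47 and 1.17, REEP2 2.14 and 1.14, MYLK3, a myosin light chain kinase, 1.28 and 1.67, and GTF2IP12 1.62 and 1.31. Lower in both were ZNF521 (-1.29 and -1.12), ZNF76 (-1.13 and -1.36) and HCN3, an ion channel gene (-1.06 and -1.08). REEP2, MYLK3, GTF2IP12 and HCN3 were below the floor on 1 Raji array, and NACA4P alone was bright on both. In the second pair, PTGDS and REEP2 were below the floor in Jeko-1, and ZNF76 and HCN3 in Jeko-1/R.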
